A study of Homo sapiens with 6 samples.

Results

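The comparison is of macrophage-like THP-1 cells stimulated with IL-17 against unstimulated cells. It takes the 2 arrays titled IL-17 and the 2 titled Unstimulated, 4 of the 6 arrays of the series, and all 298 human peptides of the 300 printed, from 202 genes. THP-1 is a human monocytic leukaemia line. In every group, the unstimulated one included, the cells had been made adherent and macrophage-like with the phorbol ester PMA for 24 h and then rested for 24 h, so all arrays describe cells that had met an activator of protein kinase C. The IL-17 group received 20 ng/ml of recombinant IL-17A/F, the heterodimer of IL-17A and IL-17F, for 15 min. The cells are 1 line, and the 2 biological replicates of each group are numbered in the titles and described as independent experiments.

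IL-17A/F acts through a receptor made of IL-17RA and IL-17RC. The adaptor Act1 and the ubiquitin ligase TRAF6 link it to the kinase TAK1, and from there to the IκB kinases that release NF-κB and to the MAP kinases ERK, JNK and p38. In macrophages and stromal cells the pathway is known for prolonging the life of inflammatory mRNAs and for acting together with TNF rather than alone.

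The array reads kinase activity in a cell lysate. Each peptide stands for a known phosphorylation site, is printed in 3 spots and is read with a fluorescent phosphoprotein stain, so signal on a peptide shows that kinases in the lysate could act on it, and does not show that the protein itself was present in the cells. For the same reason, peptides of lymphocyte or phagocyte proteins cannot test the labelled cell type here. Each peptide is called by its listed protein and residue.

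Signal stood only a little over the local background. The median ratio of foreground to background was 1.329 and 1.346 on the unstimulated arrays of replicates 1 and 2, and 1.307 and 1.165 on the IL-17 arrays. All 12 spots of a peptide on the 4 arrays were brighter than their own background for 164 of the 298 peptides, called measured here. They were 81 tyrosine peptides, 47 of 130 serine peptides and 35 of 58 threonine peptides. No spot passed its background for 55 peptides, which have no fold.

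Before any scaling between arrays, net intensity (foreground minus local background) was lower on the IL-17 arrays. The level under which 80% of the peptides of an array lie was 14291.9 on the unstimulated and 9353.9 on the IL-17 array of replicate 1, and 12796.7 and 8135.2 in replicate 2, ratios of 0.654 and 0.636. Of the 164 measured peptides, 149 had a lower net intensity after IL-17 in both replicates and 0 had a higher one in both. The ratio for IL-32 against the same controls was 0.702 in replicate 1 and 0.923 in replicate 2. Median local background was lower on the IL-17 array in replicate 1 (14665 against 20976.5) and higher in replicate 2 (21585.5 against 20034.5). The sources used here do not give the protein loaded on each array, so a lower kinase activity toward all peptides and a dimmer array cannot be told apart. With 2 arrays against 2, an exact permutation test cannot give a p below 0.333. Later log2 differences are on a corrected scale, quantile-normalized between all 6 arrays, unless another measure or setting is named. The authors' scaled value, used below for single arrays, is set within each array.

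**Figure D1:**
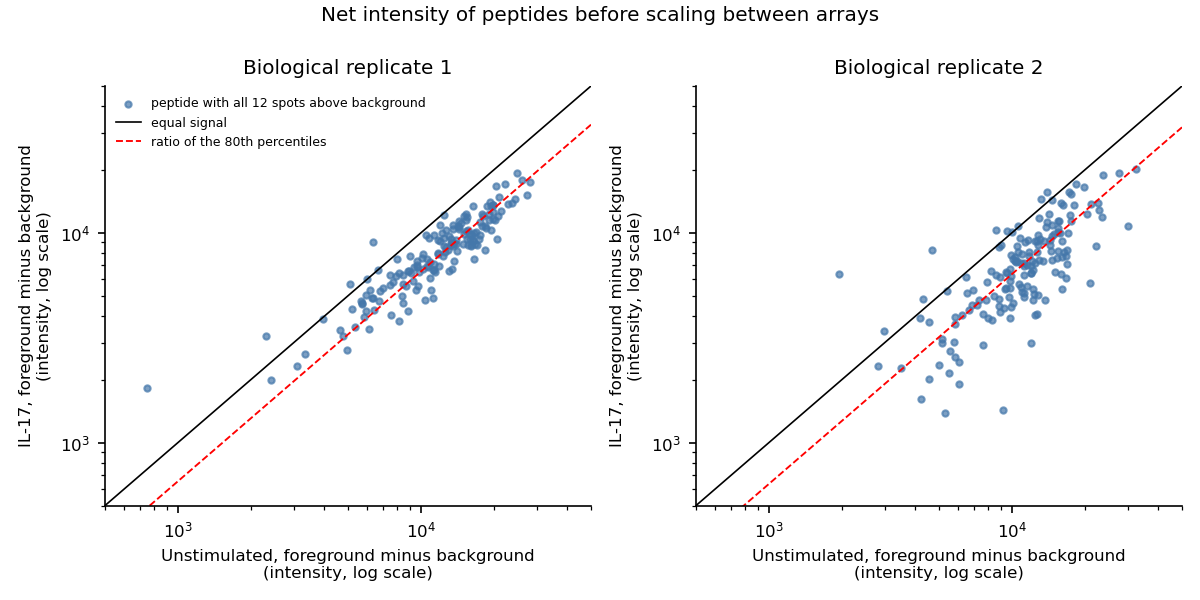
Net intensity (foreground minus local background, mean of 3 spots, log scale) of the 164 measured peptides on the IL-17 array against the unstimulated array of the same replicate number; the black line marks equal signal and the red dashed line the ratio of the arrays' 80th percentiles. Most points lie below the line of equal signal in both replicates, around ratios of 0.654 and 0.636, with a wider scatter in replicate 2.

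After scaling, the peptide pattern of the IL-17 arrays differed from that of the controls in ways that the other replicate mostly did not share. Only 60 of the 164 measured peptides (36.6%) had a difference of the same sign in both replicates, 30 higher and 30 lower (18.3% of the measured peptides each). That even split depended on the scaling: median scaling gave 9 higher and 72 lower in both, and values without background subtraction gave 8 higher and 48 lower. Across these peptides the differences of the 2 replicates had a Pearson r of -0.31 and a Spearman rho of -0.33. The replicates share no array, and peptides of 1 array share its stain, background and scaling, so the value is a description. A difference beyond 0.2 on the log2 scale in either direction was found for 20 measured peptides in replicate 1 and 43 in replicate 2. It was found in both, with the same sign, for 1 peptide, paxillin (PXN, P49023) at Y31.

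In limma's moderated test, 0 of 298 peptides passed an adjusted p of 0.05 (0.0%) and 0 had an unadjusted p under 0.05. The criteria that the study states are a change over 1.5-fold with p under 0.06, and 0 peptides met them here. Both cuts were put to the corrected scale and limma's p, not to the authors' scaled values, on which some folds were larger. The count therefore does not repeat the study's own selection. Later counts at these criteria also use limma's p. The smallest unadjusted p was 0.06 and the smallest adjusted p 0.997, with 0 fitted differences over 1.5-fold. These counts do not show that IL-17 left the peptides alone: the 95% interval of a difference reached 0.25 to either side in the median. That median is over all 298 peptides, those with no spot above background included. Among the measured ones the bounds ran as far as -1.0 and 0.87. For 146 of the 164 measured peptides the interval lay inside a 1.5-fold change, 0.58 on the log2 scale, in either direction. The corrected scale compresses changes of dim peptides and can compress those of measured ones. BATF T48, a measured peptide, was 1.87-fold higher in replicate 2 on the authors' scaled values and 0.42 higher on the corrected log2 scale. For paxillin Y31 in replicate 1 the corrected scale instead gave the wider difference. The bound is therefore for this scale and is not a bound on changes in intensity.

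**Figure D2:**
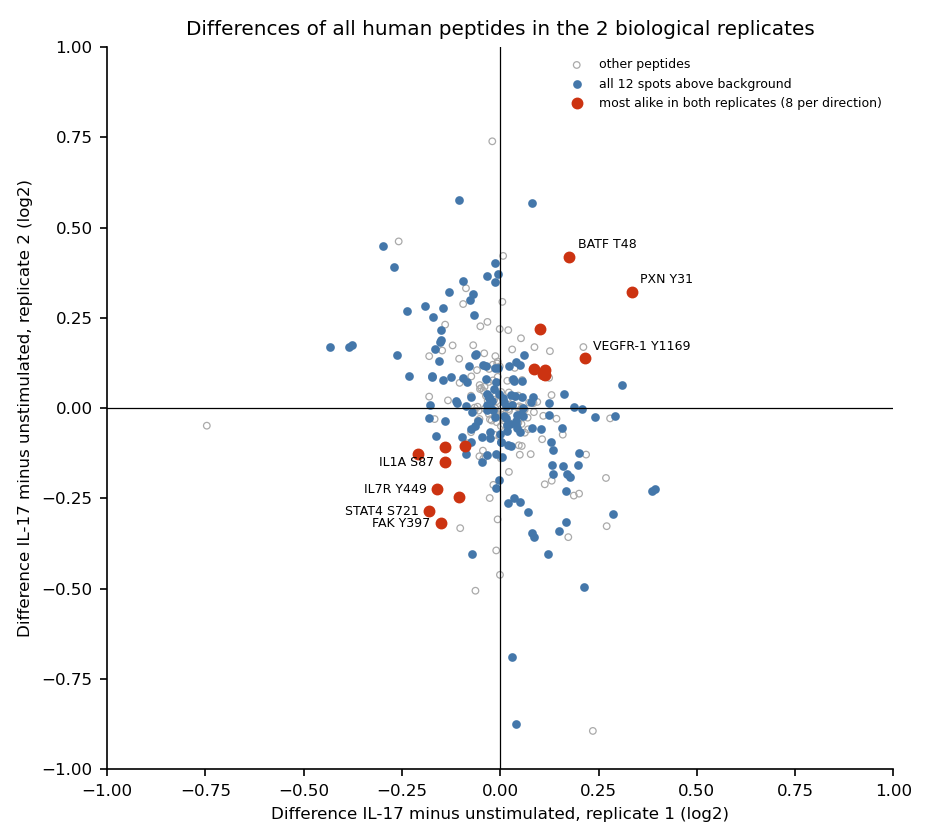
Difference between IL-17 and unstimulated cells (log2, corrected scale) in replicate 1 on the horizontal and replicate 2 on the vertical axis, for 298 peptides. Filled blue points are measured and open grey points are the rest. Red points are the 8 per direction with the largest difference shared by both replicates. Few points lie far from 0 on both axes in the same direction, and the cloud leans the other way (r = -0.3 over all 298, -0.31 over the measured ones).

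The peptides described next had the same sign in both replicates and were picked for the size of the smaller of their 2 differences. Their direction is therefore a description, and no test of it is given beyond the fit. Of the 23 peptides picked in this way or for a small p, 20 moved by over 1.5 times when 1 array was left out, the exceptions being BATF T48, PTP1B S50 and Fyn Y531. Values for each array are in relative signal, the authors' scaled value in which 1 is the level under which 80% of the array's peptides lie. On the higher side paxillin Y31 came first. Paxillin is a scaffold of focal adhesions, and Y31 is a site that focal adhesion kinase and Src phosphorylate. Its relative signal was 1.733 unstimulated and 2.056 after IL-17 in replicate 1, and 1.365 and 1.885 in replicate 2. On this scale both IL-17 arrays were above both unstimulated ones, but on the corrected log2 scale of the fit the IL-17 array of replicate 2 (12.56) lay below the unstimulated array of replicate 1 (12.69). The log2 difference was 0.33 ± 0.22 (SE of the fit, n = 2 arrays per group; limma adjusted p = 0.997), with 0.33 and 0.32 in the replicates. It was 0.098 without IL-17 replicate 1, 0.104 without unstimulated replicate 2 and 0.559 without IL-17 replicate 2. Its foreground was 2.256 and 2.036 times the local background in unstimulated cells and 2.171 and 1.814 times after IL-17, so the peptide stood higher among the peptides of its array but not further above its own background.

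BATF, a partner of Jun proteins in the AP-1 family of transcription factors, was next at T48. Its relative signal was 0.853 and 1.063 in replicate 1 and 0.675 and 1.263 in replicate 2, unstimulated before IL-17. The groups did not overlap. All 6 position-matched spots were higher after IL-17, and 5 of the 298 peptides (1.68%) had all 6 in 1 direction. Foreground over local background rose from 1.502 to 1.568 in replicate 1 but fell from 1.479 to 1.399 in replicate 2. The log2 difference was 0.30 ± 0.15 (0.18 and 0.42 in the replicates). IL-32 gave -0.08 in replicate 1 and 0.51 in replicate 2 for the same peptide, against the same controls.

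VEGFR-1 (FLT1), a receptor for vascular endothelial growth factor that monocytes carry, had 1.001 and 1.217 at Y1169 in replicate 1 and 0.771 and 0.968 in replicate 2. The IL-17 array of replicate 2 lay below the unstimulated array of replicate 1, so the groups overlapped, and the log2 difference was 0.18 ± 0.12. XIAP, an inhibitor of caspases, gave 0.16 ± 0.20 at S87, a site of Akt. Its unstimulated relative signals of 0.867 and 1.268 bracketed the IL-17 value of replicate 1, 1.004, while that of replicate 2 was 1.668. The remaining 4 were smaller. CD40 (listed as TNFRSF5), the receptor through which T cells activate macrophages, gave 0.11 ± 0.11 at T254. The initiator caspase Casp8 gave 0.10 ± 0.11 at S347. PTP1B, a phosphatase of receptor tyrosine kinases, gave 0.10 ± 0.15 at S50. ERK2 gave 0.10 ± 0.19 at Y205. Of the 8 peptides, PXN, BATF, PTP1B and ERK2 had both IL-17 values above both unstimulated ones in relative signal, as did 13 of the 164 measured peptides (7.93%), and on the corrected scale BATF, PTP1B and ERK2 did, among 7 of 164 (4.27%). Since the members were picked on this contrast, nothing is read from these counts. Without background subtraction the differences of PXN, VEGFR-1, CD40 and PTP1B were below 0.

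Of the 8 lower peptides, 3 came from STAT proteins, the transcription factors that cytokine receptors activate through JAK kinases. STAT4 S721 had a relative signal of 1.216 unstimulated and 0.997 after IL-17 in replicate 1, and 0.972 and 0.501 in replicate 2. The value of 0.997 was above the unstimulated one of replicate 2, so the groups overlapped. The log2 difference was -0.23 ± 0.14 (-0.18 and -0.29). STAT4 at Y693, the tyrosine whose phosphorylation lets it dimerize, gave -0.17 ± 0.15, with 1.387 and 1.248 in replicate 1 and 1.179 and 0.7996 in replicate 2. STAT2 Y690, the corresponding tyrosine of the interferon-activated STAT2, gave -0.10 ± 0.11.

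FAK (PTK2) at Y397, the site at which focal adhesion kinase phosphorylates itself and which recruits Src, had 1.142 and 0.974 in replicate 1 and 1.064 and 0.586 in replicate 2. The groups did not overlap, and 1 of 6 position-matched spots was higher after IL-17. The log2 difference was -0.23 ± 0.14 (-0.15 and -0.32), opposite in sign to that of paxillin, which acts beside it. The IL-7 receptor alpha chain (IL7R) gave -0.19 ± 0.17 at Y449, its STAT-binding tyrosine, with 1.406 and 1.226 in replicate 1 and 1.782 and 1.586 in replicate 2. Pro-IL-1α (IL1A) at S87 gave -0.15 ± 0.26 and the Wnt pathway factor LEF-1 at S166 -0.12 ± 0.12. Of the 7 lower peptides described, FAK and LEF-1 had both IL-17 values below both unstimulated ones on either scale, beside 12 of the 164 measured peptides (7.32%).

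**Figure D3:**
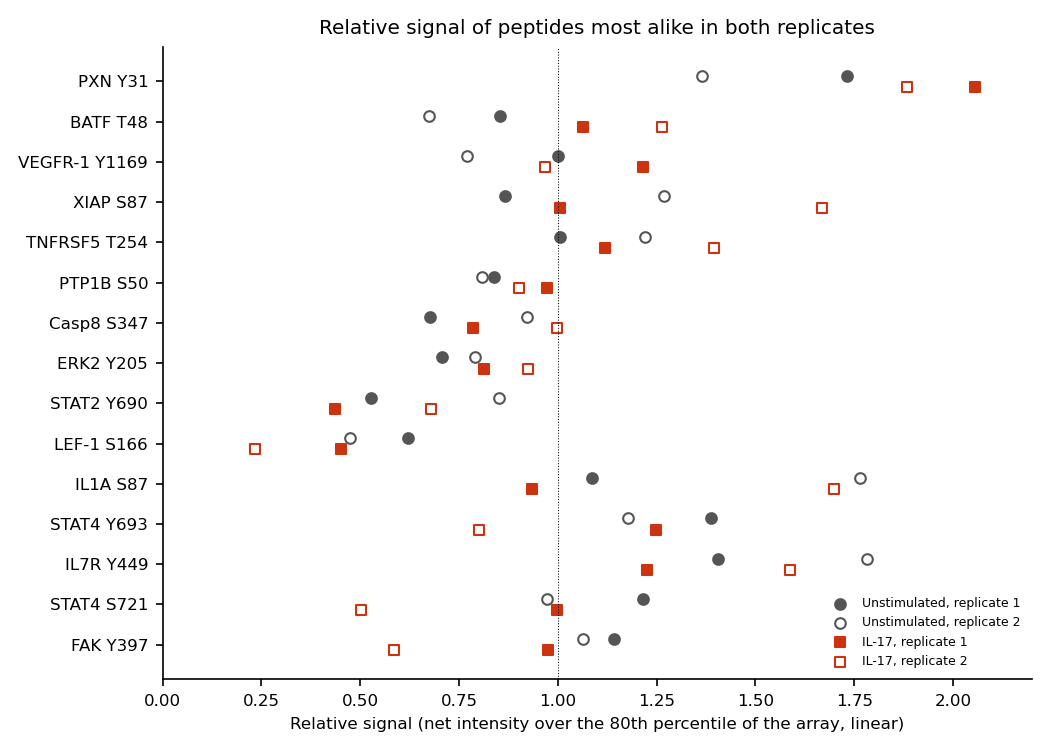
Relative signal (net intensity divided by the 80th percentile of the array, linear axis) of 15 of the 16 peptides with the largest difference shared by both replicates. Circles are unstimulated and squares IL-17 arrays, filled for replicate 1 and open for replicate 2. Within a replicate each IL-17 square lies on the same side of its circle in both replicates, while the spread between replicates of 1 group is often as wide, for example 1.088 and 1.766 for unstimulated IL1A S87.

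The pathway that IL-17 is known to use was represented by 37 peptides, of which 20 were measured and 10 had no spot above background. Among the 20 measured peptides 10 were higher and 10 lower. The median log2 difference was 0.005, beside -0.002 over all 164 measured peptides, and the range was -0.11 to 0.12. Only 3 were higher in both replicates and 2 lower in both. None passed the test, as for the whole array (0.0% called).

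At the top of the pathway, TAK1 gave no fold: at T184, a site of its activation loop, no spot passed its background, and at S192 1 of 12 did. TBK1, which IL-17 signalling recruits beside the IκB kinases, had, at the activation-loop serine S172, relative signals of 1.328 and 1.308 in replicate 1 and 1.345 and 1.928 in replicate 2. Its difference was -0.07 in replicate 1 and 0.32 in replicate 2. IKK-beta, which phosphorylates IκB and so starts its degradation, gave -0.01 ± 0.16 at Y188 and -0.01 ± 0.11 at Y199, and IKK-alpha gave 0.05 ± 0.12 at T23. IKK-gamma, the regulatory subunit, was below background at S31 and S43.

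IκB-alpha at S32/36, the serines whose phosphorylation by the IκB kinases triggers its degradation, had 0.396 and 0.506 in replicate 1 and 0.330 and 0.199 in replicate 2. It was thus higher in one replicate and lower in the other, with a log2 difference of -0.002 ± 0.10. IκB-alpha at Y42 gave 0.04 ± 0.10. The NF-κB subunit p65 (RELA) at S536 also split by replicate. Its relative signal was 1.908 and 1.623 in replicate 1, a difference of -0.38, and 1.857 and 2.317 in replicate 2, a difference of 0.17. At S311 p65 gave 0.05 and -0.26, and at S276 no spot passed its background. The p105 precursor at S337 was 0.511 and 0.531 in replicate 1 and 0.766 and 0.299 in replicate 2, a log2 difference of -0.12 ± 0.08, with 11 of 12 spots above background.

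In the MAP kinase arm, ERK1 at T202/4, the pair of residues that MEK phosphorylates, had 1.075 and 1.316 in replicate 1 and 1.204 and 1.290 in replicate 2. In relative signal both IL-17 arrays were above both unstimulated ones, but on the corrected scale the groups overlapped, and the log2 difference was 0.10 ± 0.09 (0.19 and 0.004). The corresponding p38-alpha peptide at T180/2 had 0.680 and 0.597 in replicate 1 and 0.613 and 0.591 in replicate 2, and a difference of -0.04 ± 0.07. Its 95% interval ran from -0.21 to 0.13. At Y323 p38-alpha had relative signals of 0.942 and 0.718 in replicate 1 and 0.877 and 0.879 in replicate 2. JNK2 at S129 gave -0.17 in replicate 1 and 0.25 in replicate 2. The measured JNK1 peptide, listed without a residue, was lower in both replicates (-0.05 and -0.15), with a difference of -0.10 ± 0.10. Upstream, MEK1 at S217 in its activation segment was 0.134 unstimulated and 0.609 after IL-17 in replicate 1, whereas in replicate 2 it was 0.134 and at the floor of 0.01, with 8 of 12 spots above background. Among targets, Jun S73 gave 0.04 ± 0.08 and Jun S63 was below background.

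Other peptides of this list come from JAK and PI3-kinase signalling. Jak1 Y1022/3 gave -0.23 and 0.09, Jak2 Y1007/8 0.08 and -0.05, and STAT3 at Y705 0.04 and -0.02 in the replicates. The PI3-kinase subunit PIK3R1 at S608/7 differed most between replicates, with 11 of 12 spots above background and 1.399 and 1.148 in replicate 1 and 0.141 and 0.813 in replicate 2. GSK3-beta, a kinase that Akt restrains, gave 0.04 ± 0.17 at Y216 and was below background at S9, the residue through which Akt acts.

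**Figure D4:**
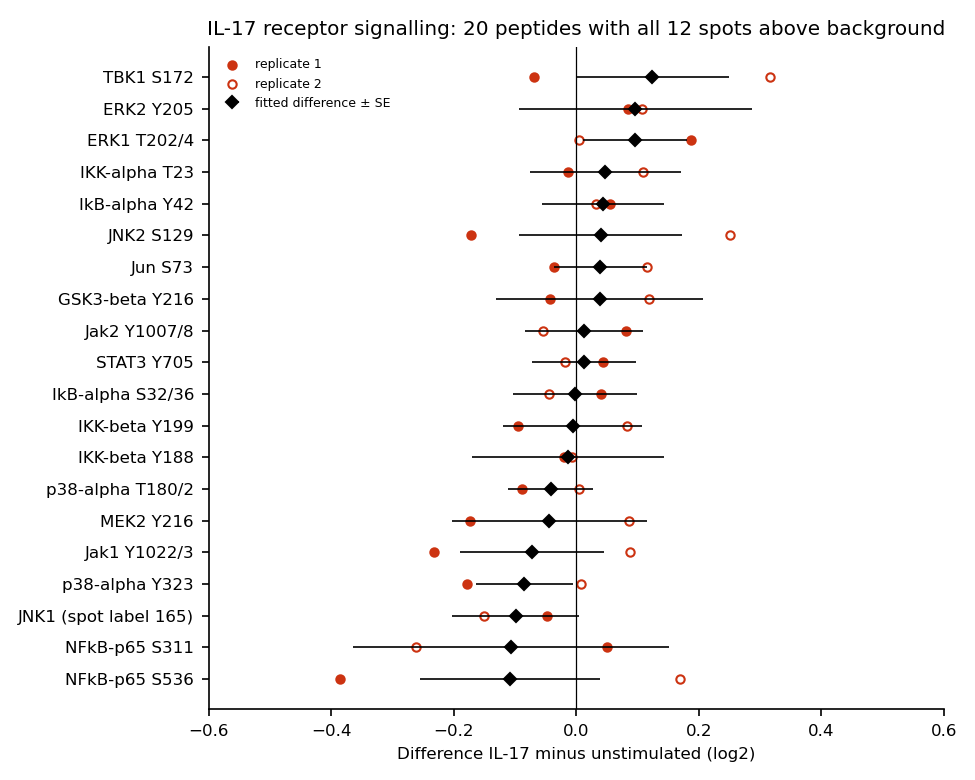
Difference between IL-17 and unstimulated cells (log2) for the 20 measured peptides of IL-17 receptor signalling; red points are the replicates (filled 1, open 2) and black diamonds the fitted difference with its standard error. The diamonds lie between -0.11 and 0.12, and for most peptides the replicates fall on opposite sides of 0.

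Of the 26 JAK-STAT and cytokine receptor peptides, 19 were measured, 12 of them lower and 7 higher, beside 85 lower and 79 higher among all 164 measured peptides, with a median of -0.047 beside -0.002. Of the 19, 7 were lower and 3 higher in both replicates, beside 30 and 30 of 164 (18.3% each) over the array, and 0 passed the test. The 7 include the STAT4, STAT2 and IL7R peptides above. STAT3 Y705 and Jak2 Y1007/8 lay near 0.

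The group of Src-family kinases, Syk and focal adhesion proteins held 15 peptides, 11 of them measured and 8 of these higher, beside 79 of 164 over the array, with a median of 0.045. Of the 11, 4 were higher and 1 lower in both replicates, and 0 passed the test. Beside PXN Y31 these were the Src-family kinase Lyn at Y507, its inhibitory tail tyrosine (0.10 ± 0.14), the Tec-family kinase Btk at Y551, its activating tyrosine (0.07 ± 0.08), and Src at S96. PXN and Btk turned negative without background subtraction, Btk also with median scaling, and Lyn without IL-17 replicate 1. The counterpart in Fyn, Y531, is not among the measured ones because 10 of its 12 spots passed background. It had 0.374 and 0.716 in replicate 1 and 0.306 and 0.492 in replicate 2, and gave 0.19 ± 0.09 with 0.21 and 0.17 in the replicates. All 6 position-matched spots were higher after IL-17, which held in either direction for 5 of the 298 peptides (1.68%). Foreground over local background at Fyn Y531 rose from 1.302 to 1.44 in replicate 1 but fell from 1.258 to 1.18 in replicate 2.

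Toll-like and IL-1 receptor peptides, whose pathway shares TRAF6 and TAK1 with IL-17, had 6 of 9 measured members higher, with a median of 0.039. On the corrected scale Btk Y551 was the single one higher in both replicates. The 5 peptides of IRAK1, the kinase below these receptors, differed among themselves. IRAK1 T209 had 1.253 and 1.282 in replicate 1 and 1.146 and 1.767 in replicate 2 (on the corrected scale -0.005 and 0.37, 0.18 ± 0.12), T387 gave 0.17 and -0.23, T100 gave 0.16 and -0.05, and S376 and S568 had no spot above background. MAP kinase cascades had 12 of 23 measured peptides higher and 11 lower (median 0.008), with Shc1 Y349/0, an adaptor below growth factor receptors, at 0.10 ± 0.12 and MSK1 T581, a kinase below ERK and p38, at -0.09 ± 0.10. In the NF-κB and IKK group 4 of 10 measured peptides were higher (median -0.004).

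TNF receptor and apoptosis peptides had 6 of 11 measured members higher (median 0.023), with RIPK1 at Y384/7/9 giving 0.07 ± 0.10 beside XIAP and Casp8. Receptor tyrosine kinases had 11 of 21 higher (median 0.010), from EphA2 Y588 at -0.13 ± 0.12 to IGF1R Y1166 at 0.23 ± 0.16, both of which had opposite signs in the replicates and were picked as the ends of the range after their values were seen. FGFR3 Y724 gave -0.08 ± 0.07 and FGFR1 Y154 0.06 ± 0.09, each with the same sign in both replicates. Protein kinase C, phospholipase C and calcium peptides had 1 of 8 higher (median -0.048), and PKCA at S656 was the single one lower in both replicates (-0.10 ± 0.11). The PI3K, Akt and mTOR group had 3 of 6 higher (median -0.002). Its peptides lower in both replicates were p70S6Kb S473/4 with -0.05 ± 0.15 and the pro-apoptotic Bad S118 with -0.04 ± 0.08. The cell cycle and p53 group had 1 of 5 higher (median -0.006, p53 S215 at -0.02 ± 0.10). Transcription factors had 7 of 12 higher (median 0.010, HIF1A T796 at -0.08 ± 0.08). The PKA and AMPK group held 1 measured peptide. No group held a peptide past the adjusted threshold.

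The phagocyte oxidase, small GTPase and cytoskeleton group had 2 of 6 measured peptides higher and 0 with the same sign in both replicates, with a median of -0.010. Its widest difference was that of p47phox (NCF1) at S370, a subunit that must be phosphorylated for the phagocyte oxidase to assemble. Its relative signal was 1.379 and 1.457 in replicate 1 and 2.339 and 1.319 in replicate 2. The fitted -0.42 ± 0.24 therefore came from the high unstimulated array of replicate 2. RAC1, the GTPase of the same oxidase, at S71 had 0.875 and 0.901 in replicate 1 and 1.001 and 0.187 in replicate 2, so its -0.23 ± 0.13 came from the IL-17 array of replicate 2, and 11 of its 12 spots passed background. Of the 7 peptides of phagocyte proteins, all measured, 2 were higher. Of the 4 of T and B lymphocyte proteins 2 were measured, and both were lower in both replicates. The lymphocyte adaptor BLNK at Y72 gave -0.12 ± 0.10.

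**Figure D5:**
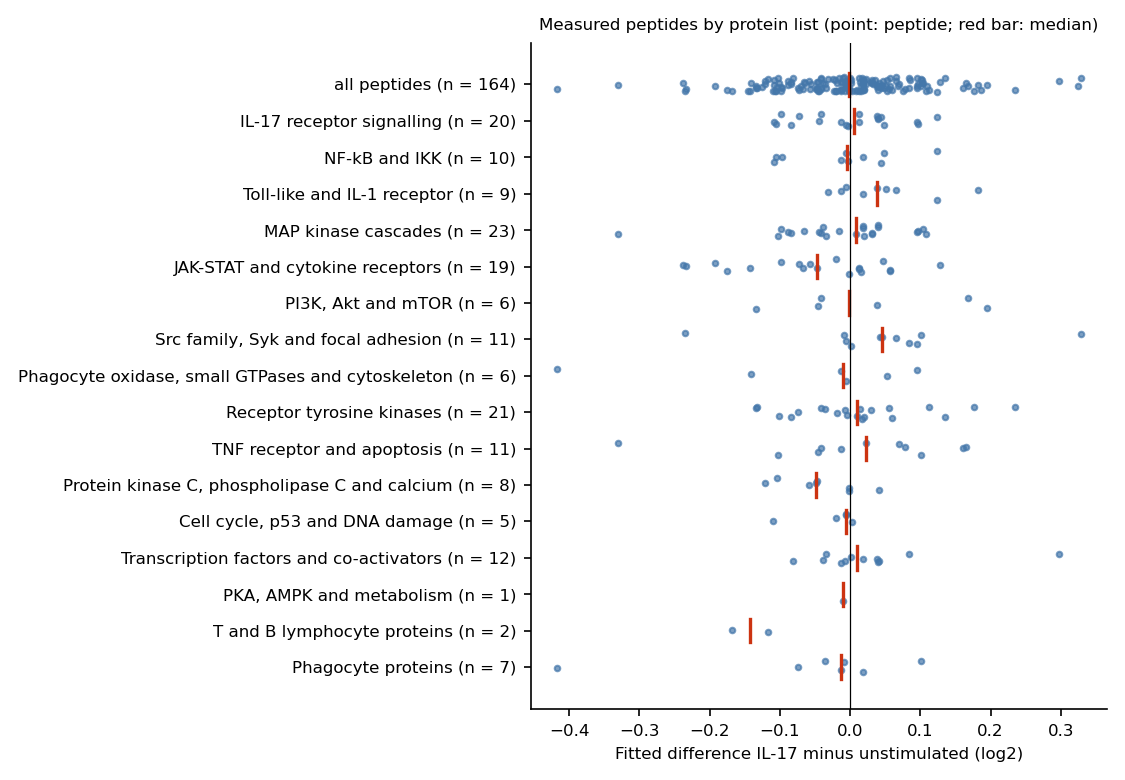
Fitted difference between IL-17 and unstimulated cells (log2) of the measured peptides in each protein list, with all 164 measured peptides in the top row; each point is a peptide, a peptide can be in several lists, vertical jitter is for display, and red bars are medians. Medians of lists with 5 or more measured peptides lie between -0.048 and 0.045.

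On the authors' scaled values, which are not compressed by the background model, some folds were larger but few were shared. Of 189 peptides above the floor of that table on the 4 arrays, 12 were past 1.5-fold in replicate 1 and 55 in replicate 2, and 3 were so in both with the same direction (1.59%). Fyn Y531 was 1.92-fold higher in replicate 1 and 1.61-fold in replicate 2. On the unstimulated array of replicate 2 only 1 of its 3 spots passed background. Its net intensity before scaling in that replicate was 3911.7 unstimulated and 4003.3 after IL-17. SEK1 (MAP2K4) at S80, in the kinase above JNK, was 4.21-fold and 4.58-fold higher, from levels of 0.0356 and 0.0722 to 0.150 and 0.331. It is a dim peptide with 9 of 12 spots above background, and on the corrected scale it gave 0.02 and 0.22. The microtubule regulator stathmin (STMN1) at S15 was at 0.622 and 0.217 of its control, on the corrected scale -0.17 and -0.03. On the IL-17 array of replicate 2 its level was 0.0444. Foreground there was 1.022 times the local background, with 2 of 3 spots above it. Stathmin was picked after these values were seen.

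The remaining peptides with the smallest p were higher at CCR7 S356/7 and BCAP Y281 and lower at MKP-1 S296. The chemokine receptor CCR7 had 1.000 and 1.137 in replicate 1 and 1.086 and 1.915 in replicate 2 (0.32 ± 0.16), and the groups did not overlap. Its difference was 0.0872 without IL-17 replicate 2 and 0.562 without IL-17 replicate 1. Foreground over local background at CCR7 rose from 1.682 to 1.74 in replicate 1 but fell from 1.816 to 1.674 in replicate 2. BCAP, an adaptor that binds PI3-kinase, had 0.834 and 0.852 in replicate 1 and 0.416 and 0.981 in replicate 2 (0.21 ± 0.11). MKP-1, a phosphatase that switches MAP kinases off, had 0.386 and 0.298 in replicate 1 and 0.646 and 0.020 in replicate 2 (-0.22 ± 0.09). BCAP and MKP-1 each had 11 of 12 spots above background. In all 3 the difference was larger in replicate 2.

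Of 28 genes with at least 2 measured peptides, 16 had all of them in 1 direction. With 79 of the 164 measured peptides higher, 2 peptides of any gene would often share a direction. No expected count was computed, so no agreement within genes is read from this. Akt1 had 4 peptides, with -0.13 ± 0.13 at Y326, -0.14 ± 0.09 and 0.05 ± 0.07 at the peptides listed without a residue (10 of 12 spots above background each), and no spot above background at S124/9. By residue, 40 of the 81 measured tyrosine peptides were higher, as were 23 of 47 serine and 16 of 35 threonine ones, with medians of -0.001, -0.002 and -0.001. The PLCB1 peptide at S887, printed under 2 spot labels, differed between them by 0.02 to 0.12 on the 4 arrays (log2), but at most 4 of its 12 spots passed background.

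Against IL-32, 0 of 298 peptides passed (limma, smallest adjusted p of a named peptide 0.997), and 4 had an unadjusted p under 0.05. Among the 72 peptides named by rule, 3 of the 4 were found: IKK-beta Y199, p65 S536 and RAC1 S71. The 2 cytokines share their control arrays. Against these, IL-32 gave -0.26 at IL7R Y449, 0.34 at ERK2 Y205 and 0.24 at BCAP Y281, each with the sign that IL-17 had. At Casp8 S347 it gave -0.07, the opposite sign. These examples were picked after their values were seen, and the cause of the shared signs was not tested.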

How the data were processed

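Each of the 6 arrays was deposited as intensities per the file headers: mean foreground and mean local background for 3 spots per peptide. The steps behind the authors' deposited ratio table were found by comparison with these intensities. Each value is the mean net intensity divided by the array's 80th percentile, with a floor of 0.01, and all 300 values of every array matched within 1 percent. It is called relative signal in the text. Scanner and image software: not given in the sources used here.

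For the fit, background was corrected with limma's normexp (offset 50), the 2 non-human peptides were dropped, spots were quantile-normalized and averaged per peptide, and lmFit and eBayes (limma 3.58.1, R 4.3.3; checked on simulated data) were run over all 6 arrays without a block, with 3 residual and 2.8 prior degrees of freedom, two-sided, Benjamini-Hochberg adjusted. A measured peptide has all 12 spots of the 4 arrays above background. Array number limits precision; replicate spots had a median SD of 0.12 to 0.20 on the log2 scale, depending on the array.

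Measured peptides with the same sign in both replicates were ranked by the smaller of their 2 differences, and the first 8 per direction and up to 3 per protein list are named. All peptides of IL-17 receptor signalling and, measured or not, the 4 per direction with the smallest p are named too. Members of proteins with 4 or more peptides, the repeated PLCB1 peptide and peptides whose number is 5 or fewer in a count were added after their values were seen. Members and lists were chosen with earlier results of these data known. Names were matched to RefSeq symbols (149), synonyms (104) or by hand (45). An accession that looks wrong was kept: the p40phox peptide carries that of p47phox. The planned classes of sites by sequence motif were not made, for want of sequences. A few peptides that the rules pick are counted but not reported here.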

Additional observations from a re-analysis of the deposited data

How the results depend on the processing

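No peptide passed the adjusted threshold in any setting other than no normalization between arrays, where 293 passed as lower, 153 met the study's criteria, 293 had an unadjusted p under 0.05, 232 had spots that did not overlap, and the share with the same sign rose to 100%. By construction the array-wide shift is then left in (median -0.587). Peptides with an unadjusted p under 0.05, 0 in the fit reported, were 3 without background subtraction, 5 with plain subtraction, 2 with foreground over background, 2 with median scaling, 1 with the median of the spots, 1 in a fit of the 4 arrays and 2 with the series value table. They were 3 (without IL-17 replicate 2) to 15 (without unstimulated replicate 1) when 1 array was left out, with 4 without unstimulated replicate 2 and 11 without IL-17 replicate 1. Peptides at the study's criteria were 1 without background subtraction (SEK1 S80), 4 with plain subtraction, 1 with the series value table, and 0 to 2 with 1 array left out (2 without unstimulated replicate 1, 1 without IL-17 replicate 2). With only peptides above the floor of that table, chosen after seeing the data, 1 met the criteria, MKP-1 S296, and with the replicate number as a block as well 2 met them and 2 had p under 0.05 (MKP-1 S296 and Fyn Y531). With median scaling 1 peptide had spots that did not overlap, and 49.4% of measured peptides had the same sign; under the other settings the share was 34.1% to 40.9%. With the replicate number as a block 4 peptides had an unadjusted p under 0.05 (CCR7 S356/7, FAK Y397, PXN Y31 and STAT4 S721) and 0 passed. Same-numbered arrays of the 2 groups deviated together with a correlation of 0.177 over all peptides and 0.247 over the measured ones. The median absolute log2 difference was 0.059 and 0.088 between same-numbered arrays of the groups, and 0.093 (unstimulated) and 0.118 (IL-17) between replicates of 1 group. The labels do not say that a number marks a shared day.

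Of the 23 peptides picked for a difference shared by both replicates or a small p, 11 kept their sign in every setting other than no normalization. So did 19 of the 72 peptides named by rule. Without normalization the higher ones turned negative: PXN -0.422, BATF -0.390, VEGFR-1 -0.512, CD40 -0.609, XIAP -0.557, Casp8 -0.575, PTP1B -0.570, ERK2 -0.569, Fyn -0.425, CCR7 -0.393 and BCAP -0.424. Without background subtraction PXN was at -0.0508, VEGFR-1 at -0.0689, CD40 at -0.131, PTP1B at -0.143 and LEF-1 at 0.00737. With foreground over background XIAP was at -0.00689 and ERK2 at -0.0369, with the median of the spots ERK2 at -0.00394, with median scaling CD40 at -0.0347 and Casp8 at -0.0012, and with plain subtraction Casp8 at -0.135 and BCAP at -1.32. With 1 array left out, 20 of the 23 moved by over 1.5 times, and PXN ran from 0.098 to 0.559 and CCR7 from 0.0872 to 0.562. XIAP ran from -0.0421 (without IL-17 replicate 2) to 0.363, IL1A S87 from -0.403 to 0.112 (0.108 without IL-17 replicate 1, 0.112 without unstimulated replicate 2), STAT4 Y693 from -0.36 to 0.00981 (without IL-17 replicate 2) and STAT2 from -0.204 to 0.00711 (without unstimulated replicate 2). The causes were not tested.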
